A study of Mus musculus with 14 samples.

Results

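The genes described here are 9 pseudogenes and long noncoding RNAs (lncRNAs) of the 56980 genes counted in mouse kidney: Gm21399, Rpl17-ps5, Gm57147, BC018473, 4931408D14Rik, Gm5540, Gm7887, Gm12678 and Rps26-ps1. They were chosen by symbol from these same libraries, because some kidneys had few or no reads of them and others had many. Their levels, and the fits and calls of them given below, are therefore a description and cannot serve as a test. RNA came from the whole kidney of each of 14 female CD-1 mice at 18 weeks of age, with 1 library per mouse. CD-1 is an outbred stock, so the mice were not genetically identical, and all were WT. Term non-diabetic (T-ND, n = 4) and term diabetic (T-D, n = 4) mice were born naturally and stayed with their own mothers. Preterm non-diabetic (PT-ND, n = 3) and preterm diabetic (PT-D, n = 3) mice were delivered early by Caesarean section and nursed by foster mothers that drank acepromazine. Preterm birth therefore cannot be told apart from the delivery, the fostering, the drug or the litter. Both diabetic groups had received streptozotocin (STZ), a toxin of the insulin-producing beta cells, and the others no treatment. STZ was repeated in some preterm animals of the study, and the sources used here do not say whether the sequenced ones were among them. All groups had been injected with cationic ferritin.

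A processed pseudogene arises when the mRNA of a gene is copied back into DNA and inserted elsewhere, without introns and without the promoter of the parent. It can be transcribed where its new surroundings drive transcription, and a young copy stays close to the parent in sequence. An lncRNA is a transcript without a recognised protein product, and many are found in few tissues.

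Of the 9 members, 5 were annotated as processed pseudogenes and 4 as lncRNAs. Gm21399 (chromosome 8, 129979479 to 129980075, plus strand, GRCm39) was a single-exon copy of Prdx1, which encodes the antioxidant enzyme peroxiredoxin 1. Gm5540 (chromosome 3, 65300758 to 65302605, plus strand) was a copy of Acsf2, an acyl-CoA synthetase of mitochondria. Gm7887 (chromosome 6, 48501488 to 48502024, minus strand) was a copy of Pcnp, which encodes a nuclear protein with PEST sequences. Rps26-ps1 (chromosome 8, 108165846 to 108166196, minus strand) and Rpl17-ps5 (chromosome 5, 22817626 to 22818180, minus strand) were copies of the ribosomal protein genes Rps26 and Rpl17. These 5 copies covered 99.5% to 100% of the coding sequence of the parent.

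The lncRNA Gm57147 (chromosome 1, 60744380 to 60744497, plus strand) was 118 bases long and lay 72 bases from the pseudogene Eif4a-ps4. It matched Eif4a1, a helicase of translation initiation, at 92.4% identity outside the coding sequence. The other lncRNAs were BC018473 (chromosome 11, 116642993 to 116650199, plus strand), 4931408D14Rik (chromosome 19, 37232068 to 37241537, minus strand) and Gm12678 (chromosome 4, 44943318 to 44949421, plus strand). They had 5, 4 and 3 exon blocks, and no coding gene matched them over 50% of their length.

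A read can be assigned to a pseudogene and not to its parent only where the sequences differ. For 4 members a stretch is shown above the same stretch of the parent's mRNA, with the differing bases in capitals, to show how few such places there are. In GRCm39 the stretches are chr8:129979524-129979703 (plus strand) in Gm21399, chr3:65301274-65301453 (plus strand) in Gm5540, chr6:48501582-48501761 (minus strand) in Gm7887 and chr8:108165925-108166174 (minus strand) in Rps26-ps1.
Gm21399: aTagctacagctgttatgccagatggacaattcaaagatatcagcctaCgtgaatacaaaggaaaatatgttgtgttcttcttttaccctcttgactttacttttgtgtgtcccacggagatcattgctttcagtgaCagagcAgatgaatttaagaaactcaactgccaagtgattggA
Prdx1: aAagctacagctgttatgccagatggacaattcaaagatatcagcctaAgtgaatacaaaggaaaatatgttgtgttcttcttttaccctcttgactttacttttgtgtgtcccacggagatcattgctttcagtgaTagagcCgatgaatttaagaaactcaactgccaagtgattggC
Gm5540: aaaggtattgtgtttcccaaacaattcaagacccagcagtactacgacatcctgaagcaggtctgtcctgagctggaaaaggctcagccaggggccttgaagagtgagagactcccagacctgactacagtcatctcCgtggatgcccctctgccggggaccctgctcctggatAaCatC
Acsf2: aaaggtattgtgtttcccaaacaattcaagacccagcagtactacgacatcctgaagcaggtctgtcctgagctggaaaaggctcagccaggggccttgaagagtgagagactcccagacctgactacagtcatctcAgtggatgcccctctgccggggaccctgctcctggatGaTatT
Gm7887: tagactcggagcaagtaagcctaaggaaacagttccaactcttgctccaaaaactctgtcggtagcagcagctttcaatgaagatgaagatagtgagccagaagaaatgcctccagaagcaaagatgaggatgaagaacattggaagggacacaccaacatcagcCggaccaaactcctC
Pcnp: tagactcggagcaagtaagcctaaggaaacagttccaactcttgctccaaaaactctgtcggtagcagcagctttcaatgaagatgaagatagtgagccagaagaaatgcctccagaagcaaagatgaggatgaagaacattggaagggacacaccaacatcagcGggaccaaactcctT
Rps26-ps1: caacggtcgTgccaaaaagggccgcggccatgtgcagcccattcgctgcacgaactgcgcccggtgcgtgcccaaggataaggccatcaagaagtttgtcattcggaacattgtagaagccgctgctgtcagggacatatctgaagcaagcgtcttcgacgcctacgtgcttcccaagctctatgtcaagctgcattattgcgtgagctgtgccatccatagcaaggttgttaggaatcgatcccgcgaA
Rps26: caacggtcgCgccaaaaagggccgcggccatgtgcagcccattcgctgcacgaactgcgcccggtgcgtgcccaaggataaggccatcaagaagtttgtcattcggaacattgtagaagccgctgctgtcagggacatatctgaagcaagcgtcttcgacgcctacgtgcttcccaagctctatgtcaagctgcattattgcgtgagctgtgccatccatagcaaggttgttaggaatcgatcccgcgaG

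Gm21399 differed from Prdx1 at 10 of 597 bases. The stretch above holds A47T, A94C, T183C, C189A and C225A, each written as the base of the parent, the position counted from 1 at the 5′ end of the member, and the base of the member. Of the 448 windows of 150 bases in Gm21399, 0 had an identical copy elsewhere in the genome and 422 differed from every copy by 2 bases or more. Its reads could therefore be placed, as far as the reference sequence goes. Gm5540 differed from Acsf2 at 18 of 1848 bases, and 366 of its 1699 windows had an identical copy. Gm7887 differed from Pcnp only by G429C and T443C, and 279 of 388 windows had an identical copy. Rps26-ps1 differed from Rps26 by C32T and G272A, with 108 of 202 windows identical to another place. Rpl17-ps5 differed from Rpl17 by G183A and T294C, and 353 of its 406 windows (86.9%) had an identical copy, with 20 other copies at least 95% identical. The levels of these 4 are uncertain for that reason. In BC018473, 4931408D14Rik and Gm12678 every window differed from all other places by at least 2 bases. Whether CD-1 mice carry the bases of the reference was not tested.

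Libraries held 16697246 to 28673176 reads counted on genes, with 21079460 to 26187982 in PT-D. All 8 kidney genes looked for, among them Umod of the tubule and Nphs1 of the podocyte, were present in every library. The adrenal genes Cyp11b1, Cyp11b2 and Star summed to 1.94 to 4.58 CPM (reads scaled to the library total), with the first pair at 0 in every library, and all 4 male genes had 3 reads or fewer in every library. The fat genes Adipoq and Plin1 summed to 0 to 34.7 CPM and the red cell genes Hba-a1 and Hbb-bs to 10.1 to 797. The T-ND libraries fell into pairs. Hmox1, the heme oxygenase induced by heme and iron, had 79419.7 and 72243 normalized counts in T-ND replicates 1 and 2 and 1539 and 2674 in replicates 3 and 4. Normalized counts are reads scaled by edgeR's TMM factors to a common library size. Hmox1 lay between 1539 and 6651 in T-ND replicates 3 and 4 and all T-D libraries, and between 27214 and 79420 in the other 8 libraries. Of the 9 members, 5 were apart by at least 2 log2 units between these pairs of T-ND libraries, where 0.967% of the 22339 genes tested were. The members were chosen for their low and high libraries, so an excess over all genes follows from the choice and cannot count for the pairs. T-ND replicates 1 and 2 also carry the suffix a in their library names, which the sources used here do not explain. Because of the pairs in Hmox1, several of the changes against T-ND are also given for each pair alone.

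**Figure D1:**
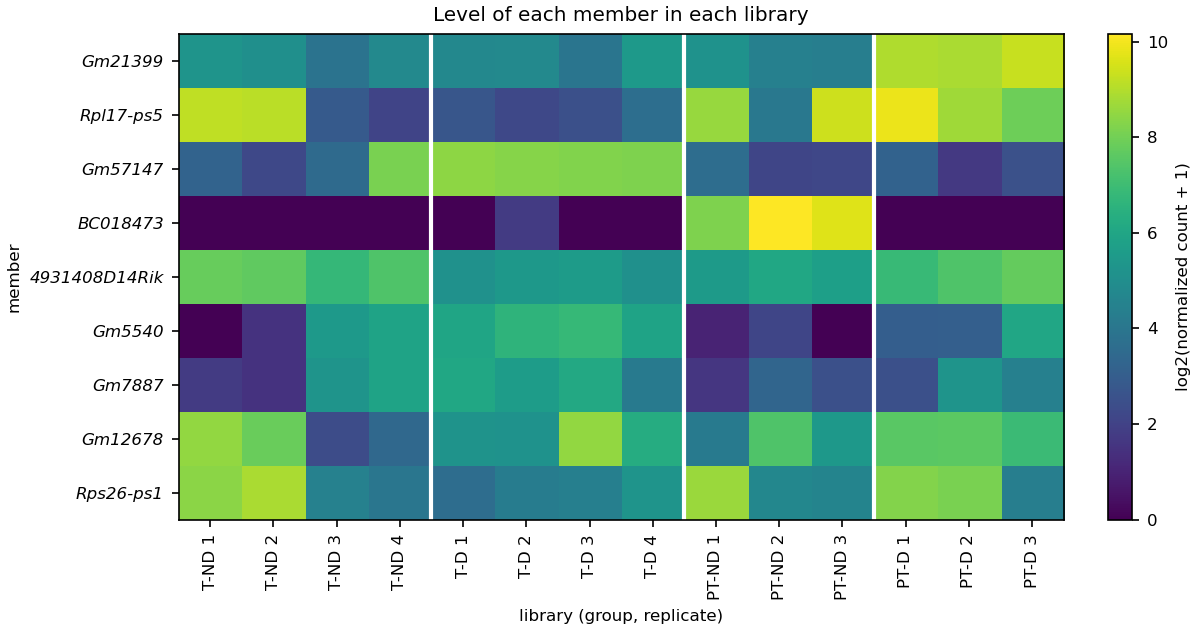
The 9 members (rows) in the 14 libraries (columns, by group and replicate, with white lines between groups), coloured by log2 of the normalized count plus 1. Gm21399 is bright in the 3 PT-D libraries and BC018473 in the 3 PT-ND libraries, while Rpl17-ps5, Gm5540, Gm7887, Gm12678 and Rps26-ps1 change between replicates 2 and 3 of T-ND.

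Gm21399 was high in PT-D and low in the other 3 groups. PT-D replicates 1 to 3 had 489, 472 and 629 normalized counts. T-ND had 36.8, 31.97, 13.6 and 26.9, T-D had 26.05, 26.8, 14.5 and 42.5 and PT-ND had 35.5, 20.4 and 19.6. The 3 PT-D kidneys lay above the other 11, with no library between 42.5 and 472. The means were 530.2 ± 86.2 in PT-D and 25.1 ± 8.94 in PT-ND (SD, n = 3 each), and 27.3 ± 10.001 in T-ND and 27.5 ± 11.5 in T-D (SD, n = 4 each). The fitted log2 fold change of PT-D was 4.27 (SE 0.29) over T-ND, 4.29 (SE 0.31) over T-D and 4.38 (SE 0.27) over PT-ND. It was 3.94 over T-ND replicates 1 and 2 alone and 4.70 over replicates 3 and 4 alone.

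Some markers of other cell types also stood apart in PT-D, while the adrenal, fat and red cell sums overlapped with those of other groups. Ptprc, which encodes the leukocyte antigen CD45, had 12.9 to 18.8 CPM in PT-D, 5.33 to 9.74 in T-ND, 4.64 to 8.50 in T-D and 5.13 to 11.3 in PT-ND. The T cell gene Cd3e had 15 to 25 reads in PT-D and 0 to 16 in the other libraries, so that PT-D overlapped with PT-ND in Cd3e and with no group in Ptprc. The liver genes Alb and Apoa2 summed to 16.8 to 31.5 CPM in PT-D, 9.43 to 11.3 in T-ND, 6.67 to 11.3 in T-D and 12.8 to 13.4 in PT-ND, and neither was at 0 in any library. The part of other cell types in the levels of Gm21399, Gm32856 and Acsf2 in PT-D was not tested. In whole-kidney RNA, fewer cells of a type and less RNA per cell cannot be told apart.

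BC018473 was high in the other preterm group. PT-ND replicates 1 to 3 had 294, 1147 and 820.4 normalized counts. No read was counted in any T-ND or PT-D library, and among T-D libraries only replicate 2 had reads, 2 in number. The PT-ND kidneys thus did not overlap with any other group, and differed widely among themselves. The PT-ND mean of 754 ± 430.2 (SD, n = 3) was at least 238-fold higher than T-ND and at least 306-fold higher than PT-D, taking 3 reads per library as the limit of detection. Per kilobase of exon its highest library had 209.6 normalized counts, against 2956 in Gm57147, 1688 in Rpl17-ps5, 1327 in Rps26-ps1 and 1054 in Gm21399. These values use the whole exon length, including stretches with an identical copy elsewhere, and Gm57147 is only 118 bases long. They therefore do not rank the genes by expression.

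Gm57147 was high in T-D. The T-D libraries had 349, 320.5, 300.3 and 289.6 normalized counts, and T-ND replicate 4 had 279. The other T-ND libraries had 8.32, 3.65 and 10.48, PT-ND had 11.5, 3.39 and 3.46 and PT-D had 8.21, 2.26 and 4.80. No library lay between 11.5 and 279, so that 5 term kidneys were high and all 6 preterm kidneys were low. The T-D mean was 315 ± 26.04 (SD, n = 4), and the log2 fold change of PT-D against T-D was −5.96 (SE 0.37). Against T-ND the T-D libraries had a log2 fold change of 2.05 (SE 0.95), which was not called. It was 5.74 against replicates 1 and 2 alone and 1.11 against replicates 3 and 4 alone.

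The ribosomal protein pseudogenes divided the libraries across the groups. Rpl17-ps5 had 582, 546, 6.29 and 3.22 in T-ND, 5.66, 3.66, 4.57 and 11.6 in T-D, 390.1, 15.8 and 666 in PT-ND and 937, 415 and 242 in PT-D. All T-D kidneys were low and all PT-D kidneys high, while T-ND and PT-ND held both kinds. The log2 fold change of PT-D against T-D was 6.41 (SE 0.53), and that of PT-D against T-ND was 0.89 (SE 1.17). The latter was −0.09 against T-ND replicates 1 and 2 alone, and 6.76 against replicates 3 and 4 alone, where it was called. Rps26-ps1 had 337, 466, 21.0 and 15.0 in T-ND, 11.3, 18.3, 19.8 and 37.3 in T-D, 399, 24.9 and 23.1 in PT-ND and 307, 277 and 19.2 in PT-D. The 5 libraries above its largest gap, which ran from 37.3 to 277, were T-ND replicates 1 and 2, PT-ND replicate 1 and PT-D replicates 1 and 2, and all 5 were also high in Rpl17-ps5.

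Gm5540 and Gm7887, the copies of Acsf2 and Pcnp, were low in the T-ND libraries in which Rpl17-ps5 was high. Gm5540 had 0, 1.83, 42.9 and 58.0 in T-ND, 62.3, 97.5, 112 and 57.9 in T-D, 1.04, 3.39 and 0 in PT-ND and 7.30, 7.52 and 64.0 in PT-D. Every T-D kidney was above every PT-ND kidney, and T-ND and PT-D held both kinds. Gm7887 had 2.38, 1.83, 37.7 and 59.1 in T-ND, 65.7, 48.7, 70.1 and 16.7 in T-D, 2.09, 9.05 and 4.62 in PT-ND and 4.56, 37.6 and 20.8 in PT-D. It was graded rather than on or off, with a largest gap of 0.84 log2 units. Gm7887 shares 88 of its 537 bases with exons of Zfp862-ps, and its reads in both strand columns summed to 571 against 393 without regard to strand.

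4931408D14Rik and Gm12678, both lncRNAs, had no clear on and off libraries. 4931408D14Rik had 221, 203, 107 and 164 in T-ND, 34.0, 41.4, 47.2 and 33.5 in T-D, 45.9, 65.6 and 53.1 in PT-ND and 114, 166 and 216 in PT-D. It was thus present in every kidney, which goes against its label of an on-off gene. T-D lay below T-ND without overlap, with means of 39.03 ± 6.58 and 174 ± 50.5 (SD, n = 4 each) and a log2 fold change of −2.16 (SE 0.28). Against T-ND replicates 1 and 2 alone it was −2.43, and against replicates 3 and 4 alone −1.79, which was not called. PT-D lay above PT-ND without overlap, with means of 165 ± 51.0 and 54.9 ± 9.97 (SD, n = 3 each) and a log2 fold change of 1.59 (SE 0.31). Gm12678 had 364, 231, 4.19 and 9.67 in T-ND, 36.2, 35.3, 364 and 77.2 in T-D, 16.7, 162 and 41.5 in PT-ND and 189.7, 193 and 122 in PT-D. All groups overlapped in Gm12678, and T-ND was spread most widely.

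**Figure D2:**
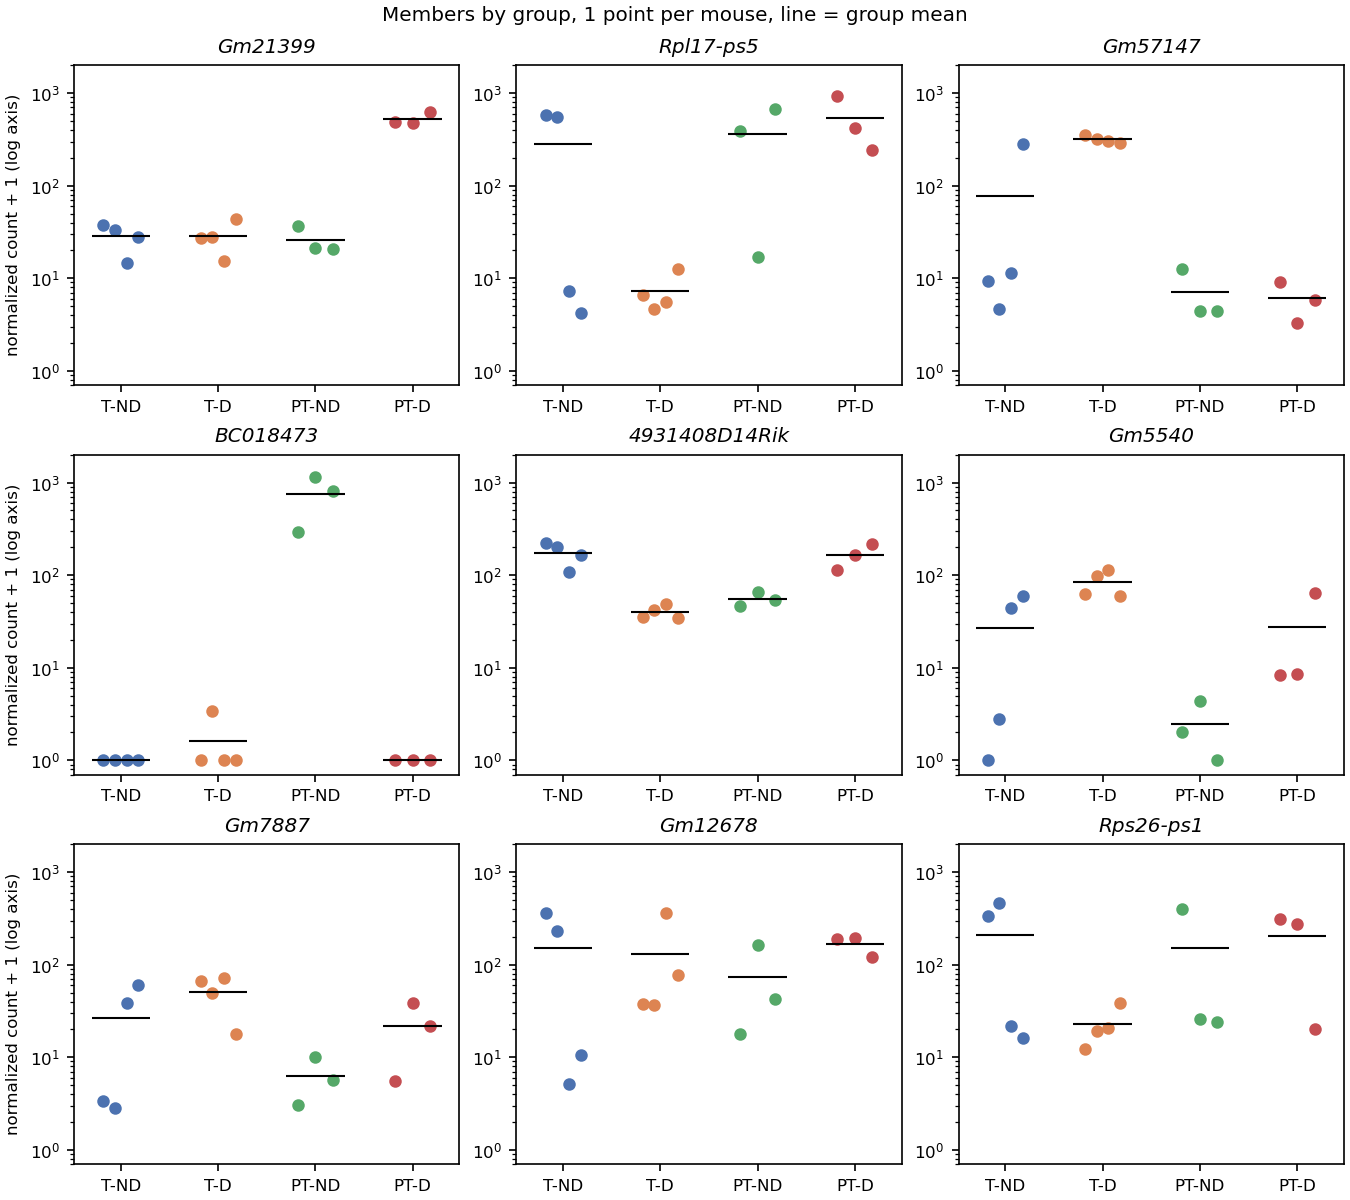
Normalized count plus 1, on a log axis, of each member by group, with 1 point per mouse and a line at the group mean. The 3 PT-D points of Gm21399 (472 to 629) and the 3 PT-ND points of BC018473 (294 to 1147) stand above all other libraries, and 4931408D14Rik is spread without a wide gap.

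Set against all genes, the members differed in how sharply they divided the libraries. The largest gap between neighbouring libraries in sorted order, on the log2(normalized count + 1) scale, was 6.42 in BC018473, 4.49 in Gm57147, 3.85 in Rpl17-ps5, 3.44 in Gm21399, 2.86 in Rps26-ps1, 2.37 in Gm5540, 1.04 in Gm12678, 0.84 in Gm7887 and 0.70 in 4931408D14Rik. The gap of Rps26-ps1 was larger than that of 99.4% of the 22339 genes tested, and that of 4931408D14Rik than that of 57.8%. A gene was counted as on-off where its lowest library had at most 10 normalized counts, its highest at least 100 and the gap was at least 2 log2 units. That held for 98 genes (0.439%) and for 4 members, Rpl17-ps5, Gm57147, BC018473 and Gm5540. Gm21399 and Rps26-ps1 fell just outside by their lowest libraries, at 13.6 and 11.3, and Gm5540 just inside with a highest library of 112. No member divided the libraries as another did, with 9 divisions in all. In Gm7887 and Gm12678 the division lay at a small gap and moved with the settings. With 5 in place of 1 added to each normalized count, the libraries above it went from 9 to 6 and from 13 to 11. Of the 5 libraries with the suffix a, 3 were above the gap in Rpl17-ps5, Rps26-ps1 and 4931408D14Rik, and 1 in Gm21399, Gm57147, BC018473 and Gm5540. In Gm7887 2 of them were above it, and in Gm12678 all 5.

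**Figure D3:**
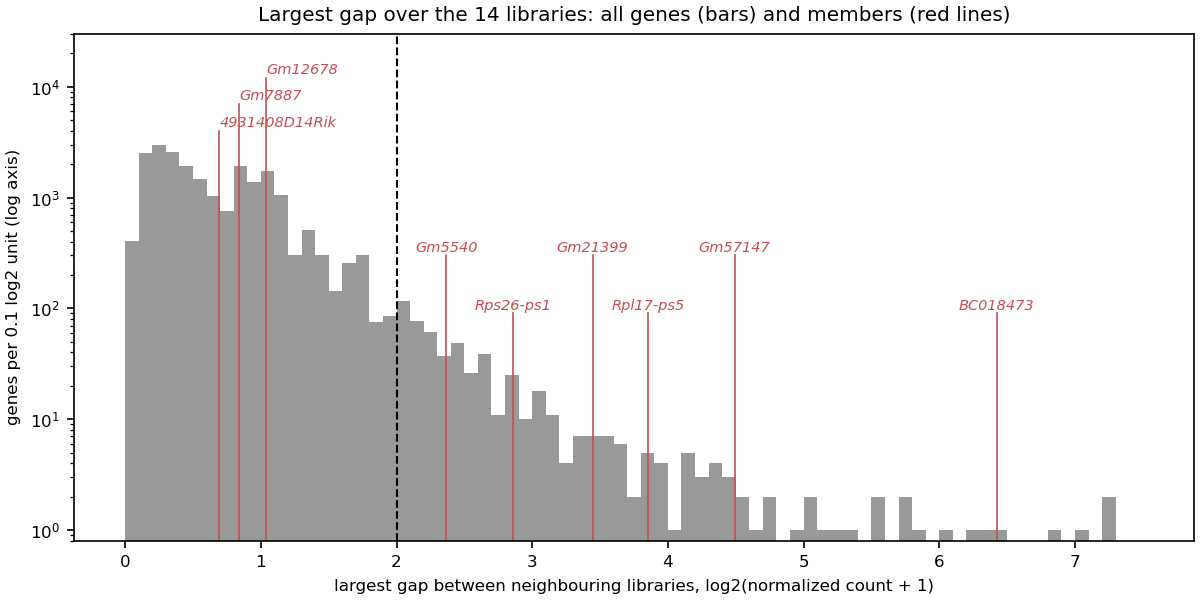
Largest gap between neighbouring libraries on the log2(normalized count + 1) scale, as a histogram of 22339 genes with the 9 members as red lines and the limit of 2 as a dashed line. The 6 members beyond the limit run from 2.37 in Gm5540 to 6.42 in BC018473.

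Each pair of groups was fitted with edgeR's quasi-likelihood test, and a gene was called where the Benjamini-Hochberg adjusted p was under 0.05 and the log2 fold change exceeded 1 in size. Because the members were chosen from these values, the counts of members are a description. In PT-D against T-ND, 1 of 8 members tested was called (Gm21399), beside 1.45% of all genes. In PT-D against T-D, 4 of 9 were called (Gm21399, Gm57147, Rpl17-ps5 and 4931408D14Rik), beside 0.193% of all genes. In T-D against T-ND, 1 of 9 was called (4931408D14Rik), beside 0.0673%. In PT-D against PT-ND, 4 of 9 were called (Gm21399, BC018473, Gm5540 and 4931408D14Rik), beside 4.95%. In PT-ND against T-ND, 1 of 9 was called (BC018473), beside 0.0809%. The T-ND pairs gave different counts: T-D against T-ND replicates 1 and 2 called 6 members and 482 genes, and T-D against T-ND replicates 3 and 4 called 0 members and 1 gene.

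The genes behind and around the members had no part in choosing them and were tested. Of 92 such genes (6 parents, 12 of the Rpl17 and Rps26 families and 76 within 100 kb of a member, some counted under both), 61 passed the filter on low counts. edgeR called 1 of 59 in PT-D against T-ND, 3 of 61 in PT-D against PT-ND and 0 in the other comparisons. These shares, 1.69% and 4.92%, lay near those of all genes, 1.45% and 4.95%. In PT-D against T-D, T-D against T-ND and PT-ND against T-ND, an unadjusted p under 0.05 was found for 12 of 59, 9 of 59 and 6 of 61 genes, where 22.3%, 11.8% and 10.7% of all genes had one. DESeq2 called 4, 1 and 0, beside 661 of 22294, 293 of 22275 and 164 of 22254 genes.

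Acsf2, the parent of Gm5540, was higher in PT-D. It had 254, 224, 278 and 364 in T-ND, 476, 687, 849.7 and 332 in T-D, 398, 383 and 303 in PT-ND and 880.1, 855 and 816 in PT-D normalized counts. All PT-D kidneys were above all T-ND and PT-ND kidneys, while T-D reached up to PT-D. Against T-D the log2 fold change of PT-D was 0.53 (edgeR adjusted p = 0.258) and was not called. That of T-D against T-ND was 1.05 (edgeR adjusted p = 0.188), and only DESeq2 called it (DESeq2 adjusted p = 0.0172). Acsf2 rose by 1.60 on the log2 scale (SE 0.17, edgeR adjusted p = 0.00475) against T-ND and by 1.23 (SE 0.16, edgeR adjusted p = 0.00277) against PT-ND. Against T-ND replicates 1 and 2 alone the change was 1.82 (edgeR adjusted p = 0.0012), and against replicates 3 and 4 alone 1.40 (edgeR adjusted p = 0.0309). Gm5540 itself had 7.30 and 7.52 normalized counts in PT-D replicates 1 and 2, the libraries with the most Acsf2. T-D replicate 3, with 849.7 of Acsf2, had the highest Gm5540 level, 112, and within T-D both genes ranked the libraries alike. The level of Gm5540 was 0% to 17.4% of that of Acsf2 over the 14 libraries.

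The other 5 parents were not called by edgeR under the main settings in any comparison of whole groups. Prdx1 had 13169.9, 15670.1 and 11343 normalized counts in PT-D, below the 16484 to 36659.8 of the other groups, and PT-D is where its copy Gm21399 was high. Its log2 fold change was −0.78 (SE 0.20, edgeR adjusted p = 0.0289) against PT-ND and −0.73 (SE 0.21, edgeR adjusted p = 0.0813) against T-ND. Against T-ND replicates 1 and 2 alone it fell by 1.02 on the log2 scale (edgeR adjusted p = 0.00883), while against replicates 3 and 4 alone the change was −0.37 and was not called (edgeR adjusted p = 0.364). Rpl17 had 4391 to 5185 in PT-D and 5818 to 14378 elsewhere, with log2 fold changes of −0.82 against PT-ND (edgeR adjusted p = 0.0248), −0.61 against T-ND (edgeR adjusted p = 0.0425) and −1.10 against T-D (edgeR adjusted p = 0.0683). Against T-ND replicates 1 and 2 alone that of Rpl17 was −0.66 (edgeR adjusted p = 0.0267), and against replicates 3 and 4 alone −0.57 (edgeR adjusted p = 0.175). DESeq2 called Rpl17 lower in PT-D than in T-D (−1.13, DESeq2 adjusted p = 0.000619). Rps26 had 3481 to 3859 in PT-D and 4024 to 11401 elsewhere, with −0.68 against PT-ND (edgeR adjusted p = 0.0519). Pcnp and Eif4a1 ranged over 1.43-fold and 1.46-fold in the 14 libraries. Gm57147 was 0.0375% to 6.02% of the level of Eif4a1, Gm7887 0.101% to 4.85% of Pcnp, and Rpl17-ps5 0.0416% to 21.3% of Rpl17.

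**Figure D4:**
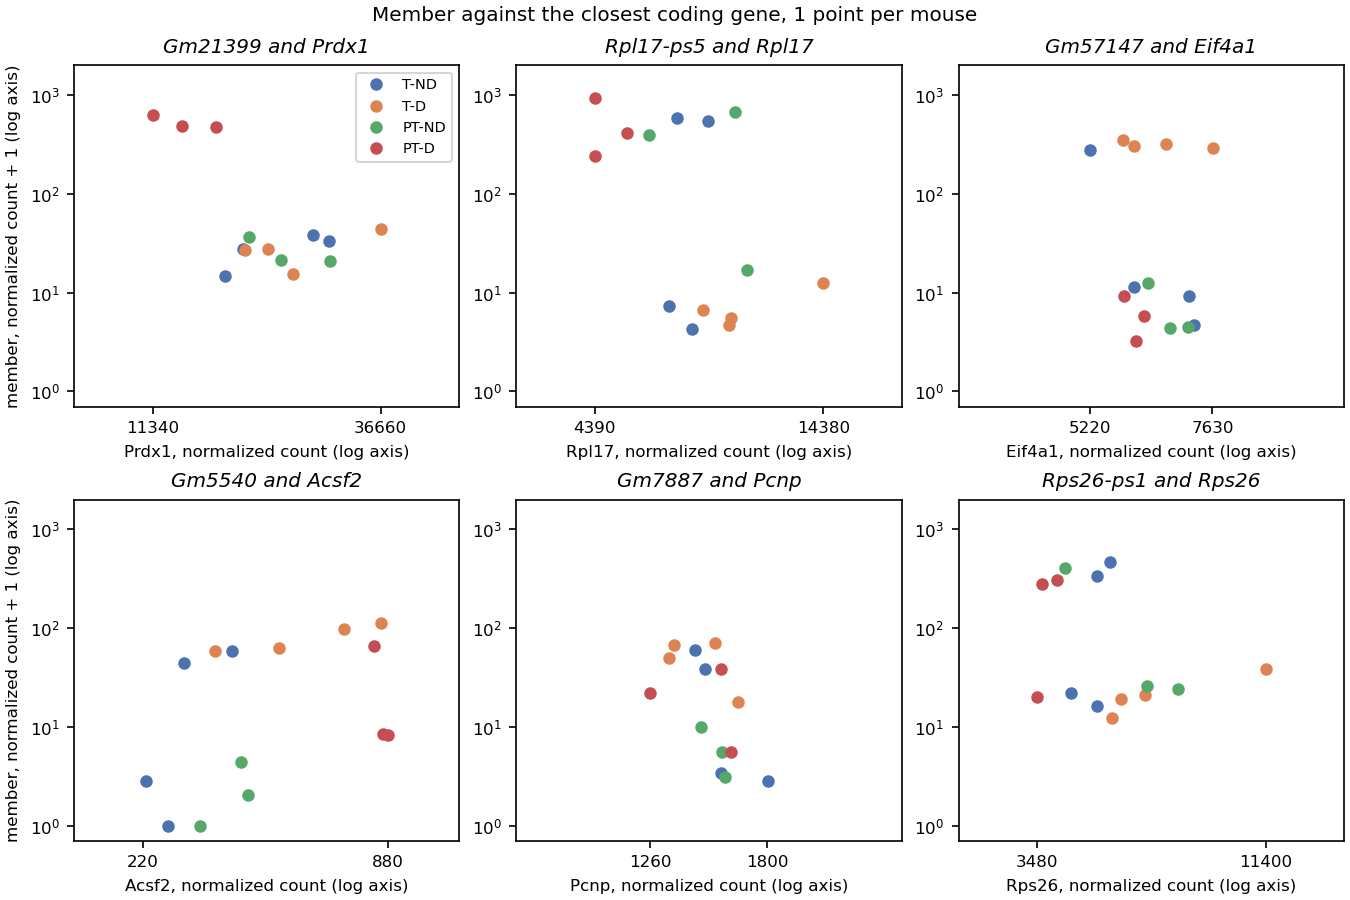
Level of 6 members (normalized count plus 1, log axis) against that of the closest coding gene (normalized count, log axis), with 1 point per mouse coloured by group. The 3 PT-D points of Gm21399 stand at the lowest Prdx1 levels, and Gm57147 takes high and low values at like levels of Eif4a1.

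The pseudogenes Rpl17-ps10 and Rpl17-ps3 were not high in PT-D, where Rpl17-ps5 was high in every library. Rpl17-ps10 had 14.4 to 18.2 normalized counts in PT-D, 34.0 to 77.2 in T-D, 21.0 to 35.6 in T-ND and 32.3 to 41.5 in PT-ND. Rpl17-ps3 had 9.03 to 10.9, 19.8 to 56.6, 8.32 to 31.2 and 14.6 to 46.4 in the same order. In PT-D against T-D neither was called by edgeR (adjusted p = 0.0880 and 0.0935), while DESeq2 called both. Of the 8 genes of these families that were tested, 0 were called by edgeR under the main settings in any comparison of whole groups.

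Beside BC018473, 5.65 kb away, lies St6galnac1, which encodes a sialyltransferase. It had 2, 9 and 20 reads in PT-ND replicates 1 to 3 and 0 in the other 11 libraries. The PT-ND mean of 11.8 ± 10.6 normalized counts (SD, n = 3) was at least 4.78-fold higher than PT-D and at least 3.72-fold higher than T-ND. edgeR called it lower in PT-D than in PT-ND (adjusted p = 0.0315), but did not call it between PT-ND and T-ND (adjusted p = 0.244, and 0.180 and 0.279 against T-ND replicates 1 and 2 or 3 and 4 alone). When a library was left out, the first call was kept without PT-D replicate 1 or PT-ND replicate 1 and lost without PT-D replicate 2 or 3 or PT-ND replicate 2 or 3 (edgeR adjusted p from 0.0190 to 0.137). On the other side of BC018473, 2.33 kb away, the pseudogene Gm11735 had 3, 1 and 9 reads in PT-ND and 0 elsewhere. Both neighbours were highest in PT-ND replicate 3 and BC018473 in replicate 2.

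Beside Gm21399, 9.84 kb away, the lncRNA Gm32856 was also higher in PT-D. It had 8.32, 6.39, 17.8 and 17.2 in T-ND, 17.0, 8.53, 15.2 and 19.3 in T-D, 15.6, 7.92 and 5.77 in PT-ND and 26.4, 42.1 and 36.8 in PT-D normalized counts. PT-D did not overlap with any other group. Against T-D the log2 fold change was 1.21 (SE 0.43, edgeR adjusted p = 0.137) and was not called. Against PT-ND Gm32856 rose by 1.83 on the log2 scale (SE 0.52, edgeR adjusted p = 0.0429), and against T-ND the log2 fold change was 1.49 (SE 0.45, edgeR adjusted p = 0.0887). Against T-ND replicates 1 and 2 alone it was 2.24 and was called (edgeR adjusted p = 0.0270), and against replicates 3 and 4 alone 0.99 (edgeR adjusted p = 0.357). The call against PT-ND was kept without PT-D replicate 1 or PT-ND replicate 1 and lost without any of the other 4 libraries (edgeR adjusted p from 0.0233 to 0.136). Zfp1006, a zinc finger gene 18.6 kb on the other side, had 76.8 to 190.0 normalized counts over all libraries and was not called.

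The nearest neighbours of the other members were not called by edgeR under the main settings in any comparison of whole groups. Ssr3, a subunit of the protein translocation machinery 0.714 kb from Gm5540, ranged over 1.58-fold. Rps26-ps1 lies inside Wwp2, a ubiquitin ligase that ranged over 1.49-fold. Ide, the insulin-degrading enzyme 4.15 kb from 4931408D14Rik, ranged over 1.36-fold, and Zcchc7 and Grhpr, on either side of Gm12678, over 1.98-fold and 1.91-fold. Rpl17-ps5 lies inside the lncRNA 6030443J06Rik, which had at most 16.4 normalized counts. Eif4a-ps4, next to Gm57147, ranged over 2.94-fold, and Zfp862-ps, around Gm7887, over 5.36-fold.

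For each member the 3 most like genes were taken by the absolute Pearson correlation of log2(normalized count + 1) over the 14 libraries, as a description. These libraries share their groups and scaling, and 15 of the 27 genes were also found with library totals in place of TMM, from all 3 in Rpl17-ps5 to 0 in Gm21399. None of the 27 lay on the chromosome of the member, and 3 lay on that of the parent. The gene most like Rpl17-ps5 was Gm46209 (r = 0.97), a processed pseudogene on chromosome 10 with 98.7% identity to it over 553 bases. Gm46209 had 38.0, 54.8, 0 and 1.07 in T-ND, 0, 0, 1.52 and 0 in T-D, 33.4, 3.39 and 57.7 in PT-ND and 55.6, 31.6 and 26.4 in PT-D normalized counts. It was low and high in the same libraries as Rpl17-ps5, and whether the reads of one were counted for the other was not tested. Hmox1 (r = 0.89) and Zfp97 (r = 0.88) came next.

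Some genes were present where a member was near absent. Gm10503, an lncRNA on chromosome 17 (r = −0.92 with Gm5540), had 97.4, 100.5, 0 and 0 in T-ND, 0, 0, 0 and 0 in T-D, 54.2, 76.9 and 142 in PT-ND and 171, 70.0 and 0 in PT-D normalized counts. It had no read in the 7 libraries in which Gm5540 was above its gap and at least 54.2 normalized counts in the other 7. Gm11541, an lncRNA 0.137 Mb from Acsf2, went with Gm5540 (r = 0.92), and Ube3d ran against it (r = −0.92). Gm3226 and Gm14150, pseudogenes with 98.7% and 98.6% identity to the tubulin gene Tuba1b, ran against Rps26-ps1 (r = −0.90 and −0.89), as did Acad12 (r = −0.86). Gm3226 had 2.26 to 7.30 normalized counts in the 5 libraries with high Rps26-ps1 and 46.4 to 211 in the other 9.

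**Figure D5:**
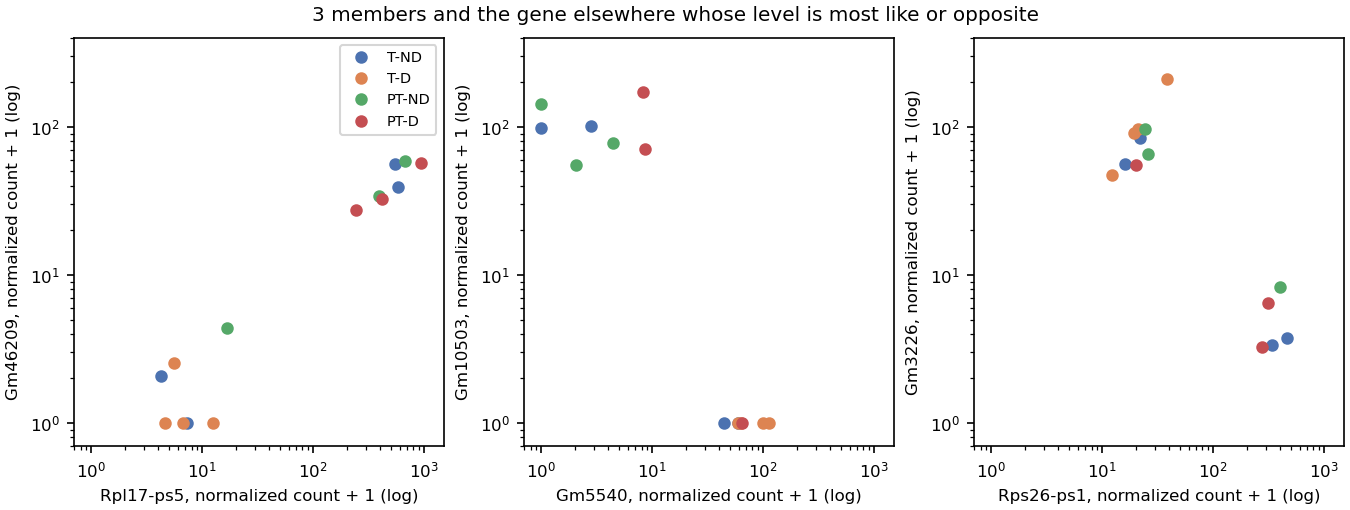
Normalized count plus 1 of Gm46209, Gm10503 and Gm3226 against that of Rpl17-ps5, Gm5540 and Rps26-ps1, on log axes, with 1 point per mouse coloured by group. Gm46209 is high with Rpl17-ps5, while Gm10503 has no read where Gm5540 is above its gap and Gm3226 is at 7.30 or less where Rps26-ps1 is above its gap.

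Zfp33b, a zinc finger gene, was most opposite to Gm57147 (r = −0.96), with 0 to 0.762 normalized counts in T-D and 40.1 to 77.3 in the preterm groups. In T-ND it had 63.0, 56.6, 7.33 and 3.22, so that replicate 3 was low in Zfp33b and in Gm57147 alike. Trim16 (r = −0.86) and the lncRNA Lncppara (r = −0.86) came next. Lama3, a laminin chain of basement membranes, was most opposite to BC018473 (r = −0.96), with 32.3 to 46.9 in PT-ND and 295 to 733 elsewhere. Catspere2 went with BC018473 (r = 0.92), with 216 to 280.5 in PT-ND and 19.9 to 61.7 elsewhere, and Samtor ran against it (r = −0.89). Lurap1l (r = −0.94), the gamma-secretase subunit Aph1a (r = −0.92) and Cmtm8 (r = −0.90) ran against Gm21399, and none of these was among its 3 most like genes with library totals. Zbtb1 (r = 0.94), Tor4a (r = 0.94) and Ccrl2 (r = −0.93) were nearest to 4931408D14Rik. Gm7887 went with the GABA receptor subunit Gabra3 (r = 0.92) and with Pm20d1 (r = 0.91), and against the cytokine gene Il1b (r = −0.90). Gm12678 had the weakest likeness of the 9, with Glyat (r = 0.81), Trim5 (r = −0.78) and the mitochondrial mRNA mt-Co1 (r = 0.77).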

How the data were processed

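The values deposited by the authors are counts of uniquely mapped reads per gene, made with STAR on GRCm39 and not normalized. The libraries were un-stranded, so the column without regard to strand was used. Symbols and positions are those of GENCODE release 39, in which 56236 of 56980 identifiers were found without their version, while the authors used an earlier release. Genes had to have more than 10 counts over the 14 libraries, which left 22339 and all 9 members. Only the libraries of the groups compared entered a fit in edgeR 4.0.16 (TMM, quasi-likelihood test, two-sided, Benjamini-Hochberg adjustment over all genes tested), with DESeq2 1.42.0 as an alternative. On simulated data the fits recovered 97% to 100% of 200 genes given a log2 fold change of 2, with 3 to 11 false calls. Recovery of genes that vary as widely within groups as some members was not tested. Rpl17-ps5, with a within-group SD of 2.54 log2 units, had a log2 fold change of −5.51 (SE 1.37) in T-D against T-ND. It was not called by edgeR.

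Sequences were read from GRCm39 and compared with BLAST 2.17.0+. The genes named are the members, their closest coding genes, the nearest tested neighbours, any such gene called, and the 3 genes most like each member. Ptprc, Cd3e, Rpl17-ps3, Rpl17-ps10, Nqo1 and St6galnac2 were named after their values were seen. The members and lists were chosen with earlier results of these data known. Limits of detection cover counting error only. Of the marker lists, 1 is given only in part.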

Additional observations from a re-analysis of the deposited data

Results flagged for a closer look

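In 4 of 31 groups of 4 libraries looked at, 1 library lay far from the other 3, where chance gives about 1 in 20. As 3 of the 4 are in members chosen for having low and high libraries, the number cannot be read against chance. T-ND replicate 4 had 279 normalized counts of Gm57147, against 3.65 to 10.48 in the other T-ND libraries. T-D replicate 3 had 364 of Gm12678, against 35.3 to 77.2. T-D replicate 2 had 2.44 of BC018473 (2 reads) where the others had 0, which is within the limit of detection. T-D replicate 4 had 11401 of Rps26, the parent of Rps26-ps1, against 5142 to 6088, and this library had the fewest genes with a count (19589).

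The direction with STZ was opposite in term and preterm kidneys for 4931408D14Rik, with a log2 fold change of −2.16 in T-D against T-ND and 1.59 in PT-D against PT-ND, and for Rps26, at 0.56 and −0.68. In both genes the groups of each comparison did not overlap. Neither change of Rps26 was called (edgeR adjusted p = 0.392 and 0.0519), and its T-D level includes the outlying replicate 4. The difference between term and preterm was not tested, and 4931408D14Rik was chosen from these values.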

How the results depend on the processing

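Of 90 counts of calls recomputed under planned settings, 77 stayed within 1.5 times the reported count, as did 6 of 12 with a pair of T-ND libraries, 4 of 6 on-off counts and all 27 counts of libraries above a member's gap. DESeq2 called 2 companion genes (parents, families and neighbours) in PT-D against T-ND, 4 in PT-D against T-D and 1 in T-D against T-ND, and 2 members in each of T-D and PT-ND against T-ND. Without a filter on low counts, 3 companion genes were called in PT-D against T-D and 2 members in each of T-D and PT-ND against T-ND. A joint fit of 14 libraries called 3 companion genes in PT-D against T-D and 2 members in PT-ND against T-ND, and the library-name suffix as a covariate also gave 2 for the latter. Adjusted p alone gave 2 companion genes in PT-D against T-ND and 10 in PT-D against PT-ND. The T-ND pairs were chosen after seeing the data. With T-ND replicates 1 and 2 only, 5 companion genes were called in PT-D, beside 1399 of 22264 genes. They were Acsf2, Gm32856, Prdx1, Nqo1 and 1 entry of St6galnac2, a symbol whose other entry was not called. In T-D the same T-ND pair gave 6 members and 1 companion gene (Nqo1), beside 482 of 22215 genes. In PT-ND it gave 2 members, beside 213 of 22121 genes. With replicates 3 and 4 only, 3 members were called in PT-D, beside 50 of 22251 genes, and 0 in T-D, beside 1 of 22151. The on-off count of 98 became 47 with a gap of at least 3 and 57 with a highest library of at least 200. The call of St6galnac1 was lost in the joint fit, DESeq2 gave it no adjusted p, and edgeR's own filter on low counts removed it.

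Leaving out 1 library gave 1 member throughout in PT-D against T-ND, 3 to 5 in PT-D against T-D, 3 to 5 in PT-D against PT-ND, 0 (without PT-ND replicate 3) to 2 (without T-ND replicate 3) in PT-ND against T-ND, and 0 (without T-ND replicate 1 or 2 or T-D replicate 2) to 3 (without T-ND replicate 3) in T-D against T-ND, with 2 without T-ND replicate 4. Companion genes stayed at 1 in PT-D against T-ND and at 0 in PT-D against T-D, T-D against T-ND and PT-ND against T-ND. In PT-D against PT-ND they ran from 1 (without PT-ND replicate 2 or 3 or PT-D replicate 2 or 3) to 5 (without PT-ND replicate 1). The on-off count ran from 78 to 105. The cause was not tested.

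Same-numbered libraries had correlations of −0.18 to 0.21, so the numbers do not pair them. With a replicate block, members called were 1, 4, 1, 5 and 1 and companion genes 1, 0, 0, 3 and 0 in PT-D against T-ND, PT-D against T-D, T-D against T-ND, PT-D against PT-ND and PT-ND against T-ND. Over all genes the block gave 73, 83, 19, 1290 and 6 calls, against 323, 43, 15, 1105 and 18 without it, and DESeq2 gave 964, 661, 293, 1360 and 164.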

Other observations

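Of the 98 genes with an on-off pattern, 62 were among 16165 protein-coding genes tested (0.384%), 9 among 3317 lncRNAs (0.271%), 10 among 1141 processed pseudogenes (0.876%) and 3 among 294 transcribed processed pseudogenes (1.02%). In 43 of the 98, a single library lay alone below or above the gap.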
